A study of Rattus norvegicus with 23 samples.

Results

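The antioxidant defence enzymes are the proteins with which a cell removes superoxide and hydrogen peroxide and keeps its thiols reduced. Their RNA was followed in peripheral blood mononuclear cells (PBMC) of rat pups through 10 genes, namely Cat, Sod1, Sod2, Gpx1, Gpx4, Prdx1, Prdx2, Txn1, Gclm and Nqo1. They were found by gene name among the probes of a 2-colour rat array, which gave 13 of its 41012 probes. Of the 10 genes, 9 passed the filter on dim probes and were among the 20781 genes and unnamed probes tested. Gclm did not pass. The pups were Wistar rats aged 21 days. In the CR groups the dam ate a diet reduced by 20% in calories through lactation, and in the control groups the dam ate freely. The groups were CR males (n = 5), control males (n = 6), CR females (n = 6) and control females (n = 6), all killed with free access to food. RNA of a single pup was labelled with Cy5 and hybridised against 1 Cy3-labelled equimolar pool of the samples, without dye swap. The labels give 5 CR dams and 11 control dams and do not tie pups to dams. Littermates may therefore stand among the replicates, and p-values that treat pups as independent may be too small. Values below are log2 ratios of pup to pool, so 0 means the level of the pool and a step of 1 means doubling.

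Superoxide, which leaks from the respiratory chain and is made on purpose by NADPH oxidase in phagocytes, is turned into hydrogen peroxide by superoxide dismutases. Peroxide is then removed by catalase, by glutathione peroxidases and by peroxiredoxins, which draw on glutathione and on thioredoxin, both kept reduced with NADPH. Red cells carry oxygen and iron and are known for high catalase, glutathione peroxidase and peroxiredoxin content. The transcription factor NRF2, bound by KEAP1 in unstressed cells, switches on many genes of the group through antioxidant response elements.

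Promoter sequences of all 10 genes were matched by symbol in RefSeq (GRCr8), and each was read over the 250 bases before the gene's start. A few are shown because their genes moved together, or against each other, from pup to pup in the values below. Capitals mark matches on either strand to any of 4 motifs. The first is the core of the antioxidant response element, TGACNNNGC. The next is a motif of the GATA factors, AGATAA. Another is the box of erythroid KLF factors, CCACACCC. The last is a shorter core of that box, spelled CCACCC. No 2 of these motifs overlapped in the windows shown. Prdx2 (chr19:40090983-40091232, minus strand), Gpx1 (chr8:117905212-117905461, plus strand) and Cat (chr3:110329527-110329776, minus strand) come first. Sod2 (chr1:50050169-50050418, minus strand) and Prdx1 (chr5:135383656-135383905, plus strand) follow.
Prdx2: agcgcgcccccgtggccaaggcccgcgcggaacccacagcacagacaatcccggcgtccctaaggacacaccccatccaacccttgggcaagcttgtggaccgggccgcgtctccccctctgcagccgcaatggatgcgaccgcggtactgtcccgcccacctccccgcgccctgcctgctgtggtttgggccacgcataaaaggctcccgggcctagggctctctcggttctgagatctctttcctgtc
Gpx1: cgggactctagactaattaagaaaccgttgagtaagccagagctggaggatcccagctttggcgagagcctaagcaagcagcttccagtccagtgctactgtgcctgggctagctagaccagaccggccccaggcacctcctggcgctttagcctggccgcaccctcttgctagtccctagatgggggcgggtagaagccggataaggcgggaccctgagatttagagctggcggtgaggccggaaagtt
Cat: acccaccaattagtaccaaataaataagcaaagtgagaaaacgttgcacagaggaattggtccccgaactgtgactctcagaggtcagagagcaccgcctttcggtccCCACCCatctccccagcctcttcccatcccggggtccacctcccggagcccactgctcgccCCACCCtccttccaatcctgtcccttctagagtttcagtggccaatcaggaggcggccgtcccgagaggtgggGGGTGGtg
Sod2: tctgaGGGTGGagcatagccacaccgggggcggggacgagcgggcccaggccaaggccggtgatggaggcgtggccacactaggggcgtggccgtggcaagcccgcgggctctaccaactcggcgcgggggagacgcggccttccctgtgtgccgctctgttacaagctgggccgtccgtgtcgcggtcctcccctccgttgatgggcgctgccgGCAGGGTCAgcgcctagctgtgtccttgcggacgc
Prdx1: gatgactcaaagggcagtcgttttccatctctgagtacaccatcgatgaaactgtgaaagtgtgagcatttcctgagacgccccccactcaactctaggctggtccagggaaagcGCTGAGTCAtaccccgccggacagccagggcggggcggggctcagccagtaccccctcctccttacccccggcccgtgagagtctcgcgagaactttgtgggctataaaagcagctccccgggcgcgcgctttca
The response element core was found before 3 of the 10 genes, Sod2, Prdx1 and Gclm, and in 10.1% of the 33469 promoter windows of the same length in the table. In Prdx1 it lay 135 to 127 bases before the start, and in Sod2 35 to 27 bases before it. The shorter core was found before Cat, where it stood 3 times, before Sod2 and before 1 of 3 annotated starts of Gpx4, and in 26.1% of all windows. The GATA motif was found before none of the 10 genes and in 10.3% of all windows, and the longer KLF box before none and in 2.84%. These are matches of letters only.

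The probe used for each gene was its brightest. Positions are given on rn4, as the array design lists them. Cat was read at chr3:88683063-88685007, Gpx4 at chr7:11163821-11163880, Prdx1 at chr5:136983425-136984996 and Prdx2 at chr19:24836405-24836464. Sod2 was read at chr1:41862972-41863005, Nqo1 at chr19:37256979-37257038 and Gclm at chr2:218915215-218915274. Sod1, Gpx1 and Txn1 had 2 probes each. Those of Sod1 (chr11:29810826-29810885, used, and chr11:29810963-29811970) moved together over the 23 arrays with an r of 0.973. Those of Gpx1 (chr16_random:1046407-1046466, used, and chr16_random:1046293-1046352) did so with an r of 0.986. The probes of Txn1 had an r of 0.346, and their median Cy5 signals were 8900 (used) and 137. The one used (chr5:75921410-75922750) lies on the minus strand, and the other (chr5:75921351-75921410), designed on an expressed sequence tag, on the plus strand, and whether the second reads the Txn1 messenger RNA was not tested. Exons and UTRs of rn4 were not used here.

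The Cy5 signal of 20630 to 24094 probes per array was above background, and the number of arrays limits the precision. Markers of the cells that a PBMC preparation should hold were present: 13 of 15 T cell, 8 of 8 B cell, 6 of 9 NK cell and 7 of 9 monocyte markers were above background on all arrays. Red cell markers (15 of 17), platelet markers (7 of 8) and neutrophil markers (8 of 10) were so too. The arrays stood on 6 slides, of which 4 held all groups, 1 held no CR male and 1 no control male. The member probes of 8 genes were above background on all arrays, with none saturated. The CR female of replicate 5 had the highest red cell marker mean of all pups, 1.61. Its array also had the lowest median r with the other arrays (0.064, against a median of 0.28). Its median Cy5 signal was the lowest too (55.3, against a median of 61.3). The spread, the main relations and the differences of Prdx2, Cat and Gpx1 are given with and without this pup. So are those of Gpx4 in females and between the sexes.

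The genes differed widely in how much they varied between pups. Prdx2 (peroxiredoxin 2, the cytosolic peroxidase abundant in red cells) spanned 9.54-fold between the lowest and the highest of 23 pups. Cat (catalase) spanned 6.58-fold, Gpx1 (the cytosolic, selenium-containing glutathione peroxidase) 5.18-fold, Sod2 (the manganese superoxide dismutase of mitochondria) 3.74-fold and Gpx4 (the glutathione peroxidase that reduces lipid hydroperoxides) 2.82-fold. The SD within groups was 0.78 for Prdx2, 0.61 for Cat, 0.54 for Gpx1, 0.46 for Sod2 and 0.33 for Gpx4, against a median of 0.14 over all features. These SDs stood at the 99.4th, 98.8th, 98.4th, 97.6th and 93.1st percentiles of all features. Without the CR female of replicate 5 the spans were 4.17-fold for Prdx2, 4.31-fold for Cat, 3.01-fold for Gpx1, 3.74-fold for Sod2 and 1.81-fold for Gpx4. The SDs were then 0.53, 0.46, 0.37, 0.47 and 0.22, at the 98.5th, 97.7th, 95.4th, 98.0th and 82.2nd percentiles. The SDs describe spread between pups of 1 diet and sex, in which animal and technical variation cannot be told apart.

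Prdx2 was at 0.81, -0.08, 0.18, -0.33 and -0.96 in the 5 CR males, against -1.09 at the lowest, -0.70 at the median and 0.04 at the highest in control males. In CR females the lowest, median and highest were -0.81, -0.54 and 2.17, against -0.73, -0.036 and 0.97 in control females. The groups overlapped widely, and 1 CR female, replicate 5, stood far above every other pup.

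Cat was at 0.77, 0.48, 0.45, -0.21 and -0.74 in CR males, against -0.76, -0.33 and 0.096 (lowest, median, highest) in control males. CR females had -1.13, -0.20 and 1.59, against -0.24, 0.22 and 0.98 in control females. Among males, 3 of the 5 CR pups were above every control pup and the other 2 were within the controls' range. CR females held both the lowest and the highest pup of the study.

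Gpx1 was at 0.31, 0.15, -0.0056, -0.44 and -0.50 in CR males, against -0.89, -0.55 and -0.02 in control males. CR females had -0.68, -0.37 and 1.48, against -0.44, -0.14 and 0.70 in control females. The same 3 CR males as for Cat were above all control males. Gpx4 was at 0.28, 0.25, -0.35, 0.044 and -0.37 in CR males and at -0.28, -0.08 and 0.058 in control males. For Gpx4, CR females had -0.29, 0.02 and 1.13, against -0.10, 0.14 and 0.48 in control females. Replicate 5 of the CR females was the highest pup for both genes.

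**Figure D1:**
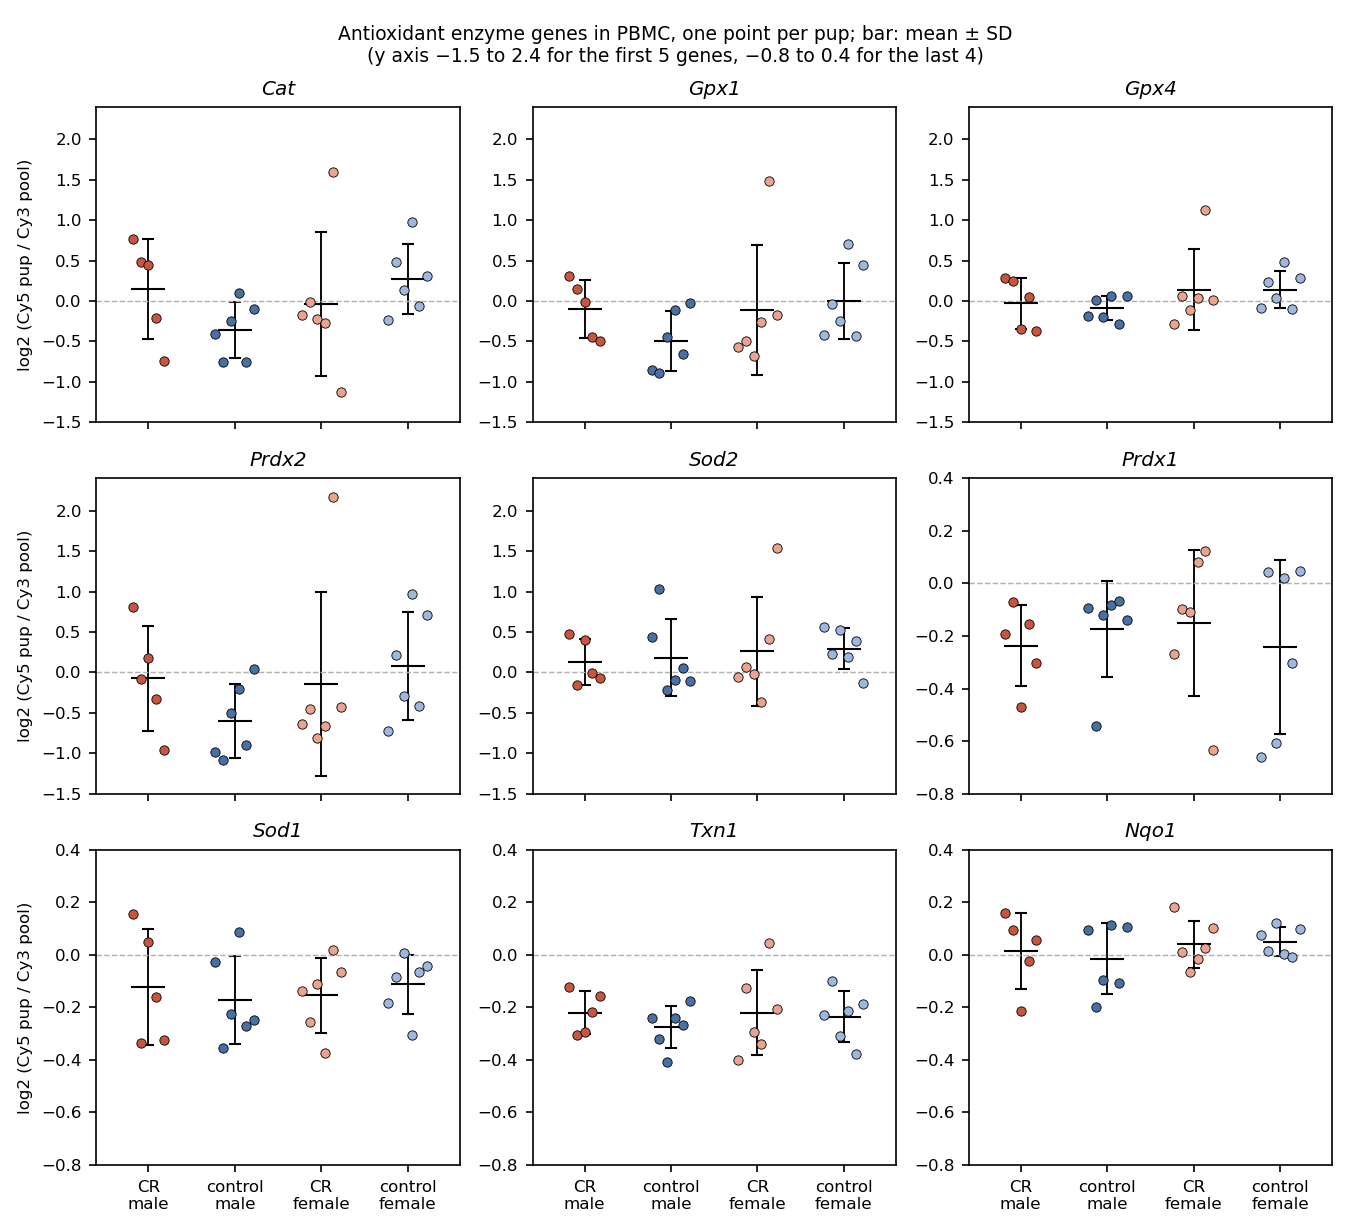
Log2 ratio of pup to pool (y axis) for 9 antioxidant enzyme genes in CR males (n = 5), control males, CR females and control females (n = 6 each); points are pups and bars are mean ± SD. The y axis differs between the 5 genes with a wide spread and the other 4, and 1 CR female lies at 2.17 for Prdx2, 1.59 for Cat and 1.48 for Gpx1.

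Prdx2, Gpx1, Cat and Gpx4 varied together and with the red cell markers, a list of 17 measured genes such as Alas2 (haem synthesis), Slc4a1 (the anion exchanger of the red cell membrane) and Hbb (beta globin). Over the 23 pups the mean of these markers had an r of 0.968 with Prdx2 (Spearman's rho 0.957), 0.932 with Gpx1 (rho 0.876), 0.904 with Cat (rho 0.890) and 0.806 with Gpx4 (rho 0.736). Of 72 relations computed, 9 genes with 8 marker lists, these 4 had an adjusted permutation p of 0.00029 or less for r and 0.0022 or less for rho. The unadjusted p of r was 1e-05 for Prdx2, Gpx1 and Cat, the smallest that 100000 permutations can give, and 2e-05 for Gpx4. Without the CR female of replicate 5 the values of r were 0.967, 0.910, 0.861 and 0.711. Without the 2 pups farthest from the median they were 0.958, 0.883, 0.823 and 0.625. Within slides r was 0.974 for Prdx2, 0.945 for Gpx1, 0.961 for Cat and 0.811 for Gpx4. Within groups it was 0.965, 0.923, 0.889 and 0.820. Taken slide by slide, r was positive on all 6 slides for Prdx2, Gpx1 and Cat and on 5 for Gpx4. On the slide without a CR male, with 4 pups, r of Gpx4 was -0.94. In mixed cells, fewer red cells and less RNA per red cell cannot be told apart, and the part of red cells in the level of these genes was not tested. A gene and a marker mean also share the array, the pool and the normalization. How many of all features relate as strongly to a marker mean was not counted.

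The red cell marker mean was at 0.52, -0.02, 0.11, -0.48 and -1.26 in CR males, against -1.58, -0.84 and -0.10 (lowest, median, highest) in control males. CR females had -1.05, -0.79 and 1.61, against -1.27, -0.14 and 0.97 in control females. In CR males the 5 pups stood in the same order as for Prdx2, and in every group the marker mean overlapped that of the others. Among themselves Prdx2 and Gpx1 had an r of 0.969, Prdx2 and Cat 0.892, Gpx1 and Gpx4 0.858, and Cat and Gpx4 0.765, the lowest of the 6 pairs. Without the CR female of replicate 5 these were 0.944, 0.838, 0.725 and 0.625. Prdx1, also a peroxidase, was less like them, with an r of 0.42 with Prdx2 and 0.40 with Gpx1, and 0.47 with the red cell markers (adjusted permutation p of 0.18).

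**Figure D2:**
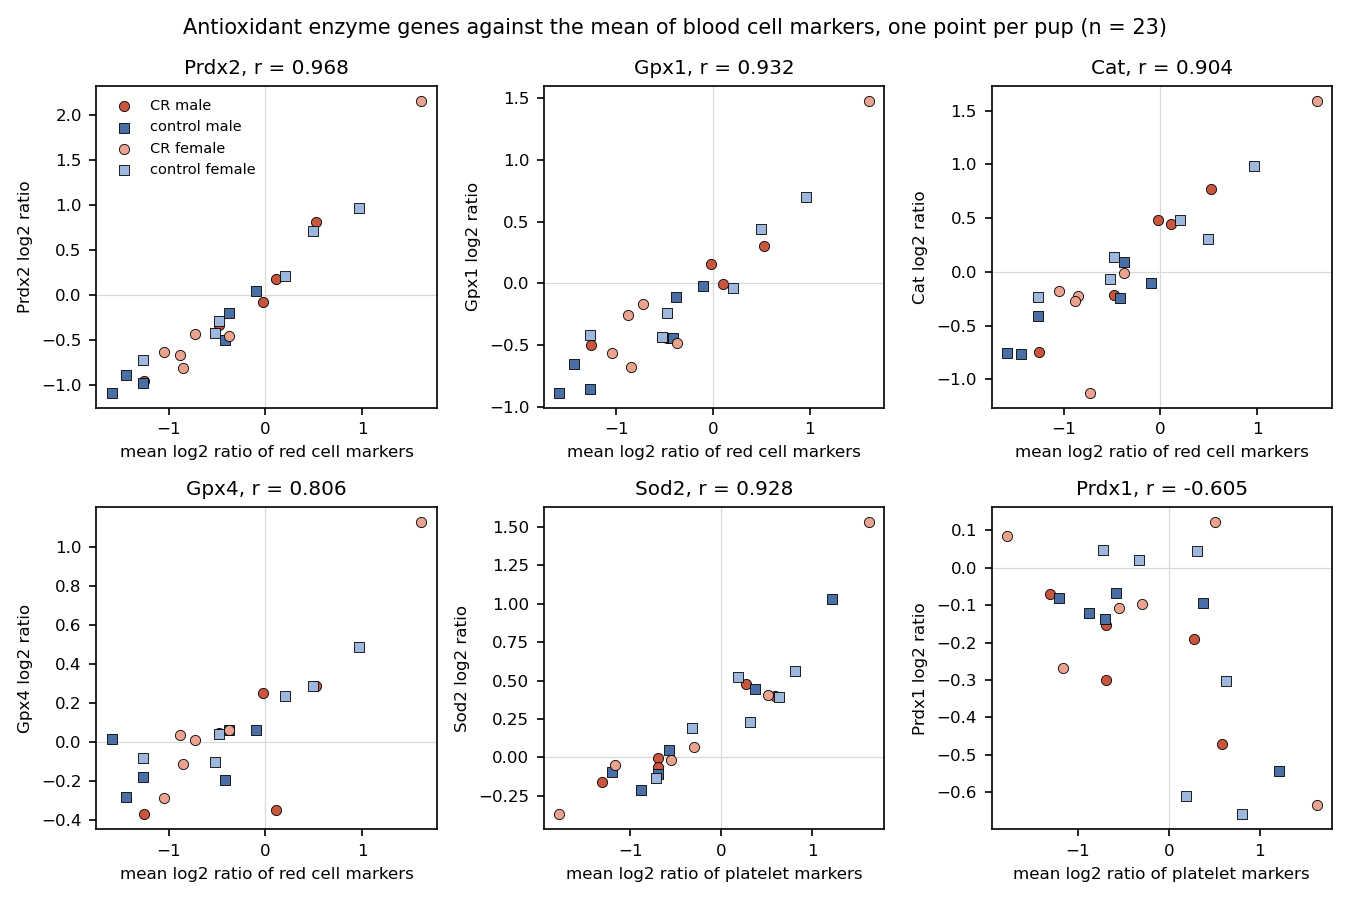
Log2 ratio of a gene (y axis) against the mean log2 ratio of red cell or platelet markers (x axis), 1 point per pup (n = 23), circles for CR and squares for control pups. Prdx2, Gpx1, Cat and Gpx4 run along the red cell mean, Sod2 along the platelet mean (r of 0.928), and Prdx1 against the platelet mean (r of -0.605).

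Sod2 varied along another axis. It was at 0.48, -0.16, 0.40, -0.0064 and -0.064 in CR males, against -0.21, -0.02 and 1.03 (lowest, median, highest) in control males. CR females had -0.37, 0.02 and 1.53, against -0.13, 0.31 and 0.56 in control females. The highest pup was the CR female of replicate 6 and the next a control male, replicate 2, and all groups overlapped.

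Over the 23 pups Sod2 had an r of 0.928 (rho 0.926, adjusted permutation p of 0.00018) with the mean of 8 platelet markers, among them Pf4 and Ppbp (chemokines of platelet granules) and Gp9 (a platelet adhesion receptor subunit). It was 0.939 without the 2 pups farthest from the median, 0.936 within slides and 0.937 within groups. With the red cell markers Sod2 had an r of -0.10, with monocyte markers -0.10 and with neutrophil markers -0.13, and the adjusted p of each was 0.78 or more. The platelet mean was at 0.27, -1.31, 0.59, -0.69 and -0.69 in CR males, against -1.20, -0.64 and 1.21 in control males. CR females had -1.78, -0.42 and 1.62, against -0.72, 0.25 and 0.81 in control females. The pup with the highest Sod2 also had the highest platelet mean, and the pup with the lowest Sod2 the lowest. The part of platelets in the level of Sod2 was not tested.

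Prdx1 (peroxiredoxin 1, a cytosolic peroxidase and a known NRF2 target) stood opposite to Sod2, with an r of -0.68. It was at -0.19, -0.070, -0.47, -0.15 and -0.30 in CR males, against -0.54, -0.11 and -0.067 in control males. CR females had -0.63, -0.10 and 0.12, against -0.66, -0.14 and 0.046 in control females. The 4 lowest pups were 1 control male, 1 CR female and 2 control females, so no group stood apart. With the platelet mean Prdx1 had an r of -0.605 (adjusted permutation p of 0.028) and a rho of -0.50 (adjusted p of 0.12). Without the 2 pups farthest from the median r was -0.43, so the relation rests in part on those pups. It also missed the threshold without background correction (adjusted p of 0.0504) and with median centring (0.313). Leaving out the control male of replicate 2 gave an adjusted p of 0.085. The CR female of replicate 4 or 6 gave 0.0782 or 0.122, and the control female of replicate 1 gave 0.0567. Over all omissions of 1 pup the adjusted p ran from 0.00384 to 0.122. The r ran from -0.70, without the CR female of replicate 5, to -0.518, without that of replicate 6.

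Sod1 and Txn1 had narrow spans between pups. Sod1, the copper and zinc superoxide dismutase of the cytosol, lay between -0.38 and 0.16 over all 23 pups, a 1.45-fold span. Txn1 (thioredoxin, the small protein that recharges peroxiredoxins) lay between -0.41 and 0.043, a 1.37-fold span. Their SDs within groups stood at the 64.2nd and 30.0th percentiles of all features, and at the 63.5th and 12.4th without the CR female of replicate 5.

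Nqo1 (a quinone reductase and classic NRF2 target) was close to the detection limit. Its Cy5 signal was above background in 4 of 5 CR males and 1 of 6 control males, and in 3 of 6 CR females and 6 of 6 control females. Its spot signal was 47.9 to 65.6 where the local background had a median of 29, and the Cy3 pool was above background on 0 of 23 arrays, so its ratios, between -0.21 and 0.18, do not show how much it varied. Gclm (the modifier subunit of glutamate-cysteine ligase, which makes the first step of glutathione synthesis) was above background on 1 of 23 arrays, a CR male, with signals of 32.8 to 61.2. No level or difference of Gclm could be given at this sensitivity.

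Txn1 had an r of 0.559 with the red cell markers (rho 0.497), which did not pass after adjustment (adjusted permutation p of 0.057 for r and 0.12 for rho). It was 0.355 without the CR female of replicate 5, and it passed without background correction (adjusted p of 0.0371) and from the scanner software's ratios (0.0495). Txn1 also passed without 1 of the CR males of replicates 2, 3 and 5 or the control male of replicate 3, with an adjusted p of 0.0222 to 0.0453. Sod1 had no relation past the threshold, the strongest being 0.38 with red cell markers, and Nqo1 none, the strongest being 0.50 with monocyte markers (adjusted p of 0.13). Of the 72 relations, 6 in all passed for r.

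**Figure D3:**
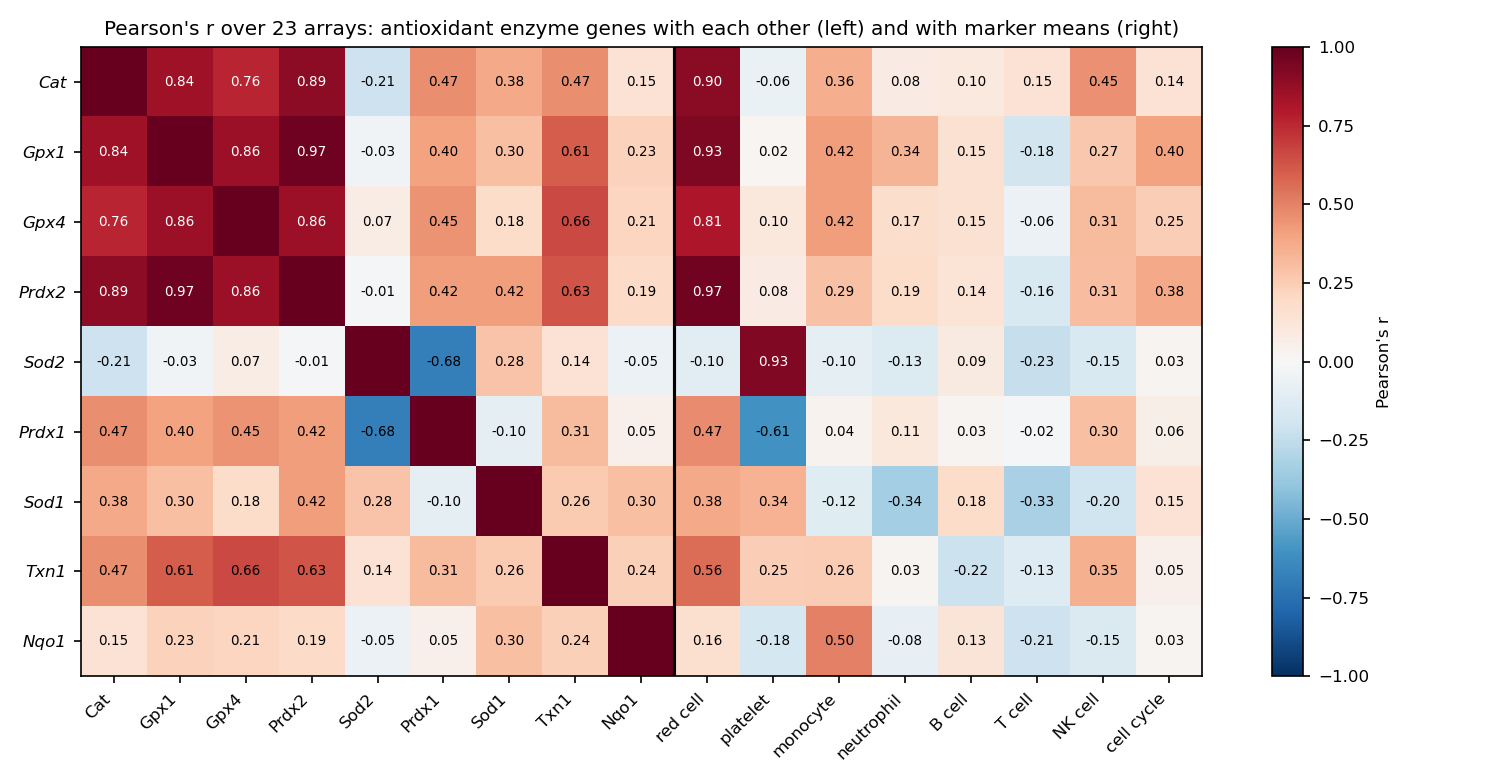
Pearson's r over 23 arrays, shown as colour and number, of each antioxidant enzyme gene with the other genes (left of the line) and with the means of 8 marker lists (right of it). Cat, Gpx1, Gpx4 and Prdx2 form 1 block with values of 0.76 to 0.97 that extends to the red cell markers, and Sod2 stands apart with the platelet markers.

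The first question of the design is whether the dam's restricted diet altered PBMC RNA at weaning. None of the 9 genes passed an adjusted p under 0.05 in limma in either sex, in their mean or in the difference between them. No feature did either, so percent called was 0% in each of these comparisons. An unadjusted p under 0.05 was reached by 0 of the 9 genes in each, against 7.18% of all features in males and 4.64% in females, with 7.35% for their mean and 4.67% for their difference.

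In males the largest values were in the genes that varied most. Prdx2 averaged -0.08 ± 0.65 in CR males and -0.60 ± 0.46 in control males (SD, n = 5 and 6), a difference of 0.53 with a 95% interval of -0.37 to 1.43 and an adjusted p of 0.82. Cat averaged 0.15 ± 0.61 in CR males and -0.36 ± 0.35 in control males, a difference of 0.51 (-0.19 to 1.21). Gpx1 averaged -0.10 ± 0.36 in CR males and -0.50 ± 0.37 in control males, a difference of 0.40 (-0.23 to 1.03). Each interval spanned 0. With the slide as a block they were 0.20 for Prdx2, 0.33 for Cat and 0.18 for Gpx1, and within the 4 slides that held both groups each was positive in 3. Leaving out 1 pup gave 0.307 to 0.749 for Prdx2, 0.355 to 0.733 for Cat and 0.299 to 0.501 for Gpx1, lowest without the CR male of replicate 1 and highest without that of replicate 5.

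The other 6 genes differed by less in males. Gpx4 differed by 0.058 (-0.33 to 0.44), Sod1 by 0.050 (-0.15 to 0.25) and Sod2 by -0.054 (-0.59 to 0.48). Prdx1 differed by -0.063 (-0.36 to 0.23), Txn1 by 0.056 (-0.087 to 0.20) and Nqo1 by 0.029 (-0.11 to 0.17). Nqo1 was near background, so its narrow interval does not bound a difference. In this fit the interval of Txn1 runs from 0.94-fold to 1.15-fold, and that of Prdx2 from 0.77-fold to 2.69-fold. Neither covers a change of normalization. With median centring Txn1 was at -0.457 in males, or -0.271 relative to the median of all features, outside its interval. The second Txn1 probe, on the other strand and much dimmer, gave -0.14 (-0.33 to 0.049).

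In females Prdx2 averaged -0.14 ± 1.14 in CR pups and 0.08 ± 0.67 in control pups (SD, n = 6 each), a difference of -0.22 (-1.07 to 0.64). Cat averaged -0.04 ± 0.89 in CR females and 0.27 ± 0.43 in control females, a difference of -0.31 (-0.98 to 0.37). Gpx1 differed by -0.11 (-0.71 to 0.48). Without the CR female of replicate 5 these differences were -0.68, -0.63 and -0.43, with an adjusted p of 0.84 for Cat and 0.859 for Prdx2 and Gpx1. Gpx4 differed by -0.0046, Sod1 by -0.042, Sod2 by -0.033, Prdx1 by 0.093, Txn1 by 0.016 and Nqo1 by -0.011, each with an interval that spans 0. Without the CR female of replicate 5 Gpx4 was at -0.202. Within the 6 slides the female difference was positive in 2 for Prdx2 and Cat and in 1 for Gpx1 and Gpx4.

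**Figure D4:**
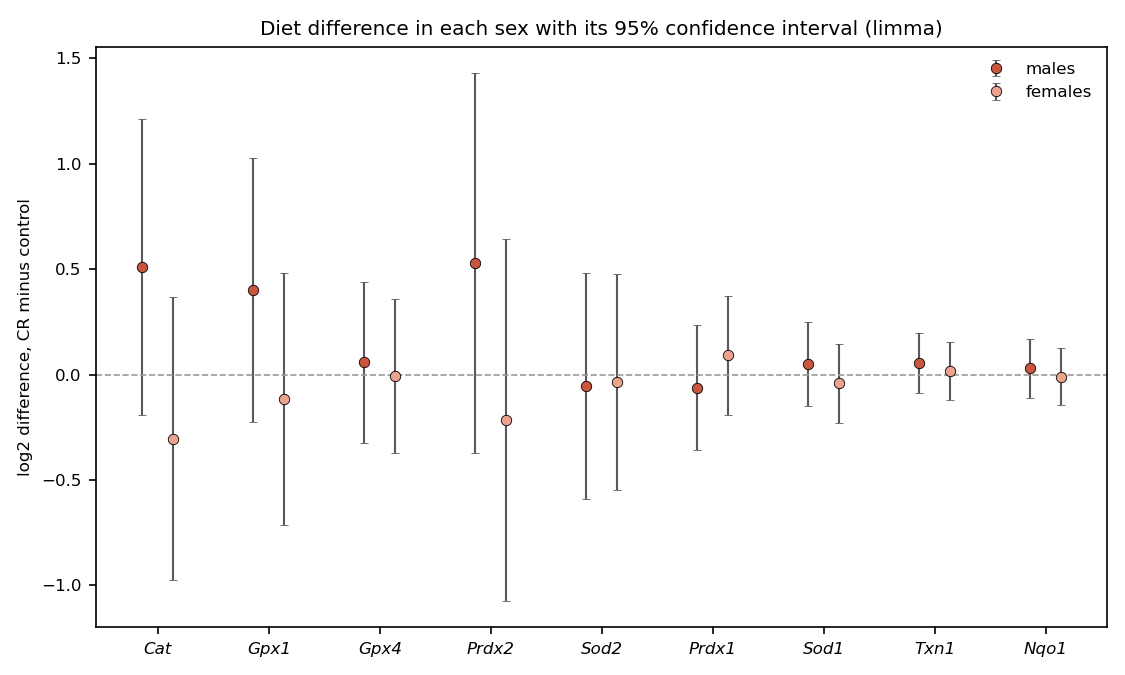
Log2 difference between CR and control pups (y axis) of 9 antioxidant enzyme genes, males in dark and females in light, with the 95% confidence interval from limma. Every interval spans 0, and the widest belong to Prdx2, Cat and Gpx1.

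Markers of other blood cells were read in the same comparisons. Red cell markers were higher in CR than in control males in 17 of 17, with a median difference of 0.66, and lower in CR than in control females in 16 of 17, with a median of -0.27; 0 of 17 were called in either. With the slide as a block 16 of 17 were positive in males, with a median of 0.23. Platelet markers were lower in CR females in 8 of 8 (median -0.46) and in 6 of 8 in males (median -0.09), where 1 of 8 was lower with the slide as a block. The medians over all features were -0.0066 in males and 0.0032 in females. The part of these cells in the diet values was not tested.

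The difference between the sexes in the diet values was 0.82 for Cat (-0.16 to 1.79), 0.75 for Prdx2 (-0.50 to 1.99) and 0.51 for Gpx1 (-0.35 to 1.38), with an adjusted p of 0.94 for each. Without the CR female of replicate 5 these were 1.141, 1.206 and 0.834, with an adjusted p of 0.758 for each. For the mean of the sexes the values ran from -0.044 for Sod2 to 0.16 for Prdx2, with an adjusted p of 0.93 or more, and without that pup Prdx2 was at -0.0737. The genes, Nqo1 near background included, were on the positive side in 7 of 9 in males and 2 of 9 in females as normalised by loess. In females 4 of 9 were positive without background correction. With median centring 3 of 9 were positive in males, where the median of all features itself shifted to -0.185, and 4 of 9 lay above that median. The direction of the group in males thus depended on the normalization.

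Between the sexes, averaged over the diets, 0 of the 9 genes passed, against 12 features or 0.0577% of all. An unadjusted p under 0.05 was reached by 0 of 9, against 7.4% of all features. The genes were lower in males in 9 of 9 (median -0.12), Nqo1 near background included. They were so in 8 of 9 from the scanner software's ratios and in 6 of 8 in the authors' deposited value table. Prdx2 averaged -0.34 in males and -0.03 in females, a difference of -0.31 (-0.93 to 0.31). Gpx1 differed by -0.24 (-0.68 to 0.19), Cat by -0.22 (-0.71 to 0.26) and Gpx4 by -0.20 (-0.46 to 0.067). Without the CR female of replicate 5 these were -0.0796 for Prdx2, -0.0823 for Gpx1, -0.0608 for Cat and -0.0996 for Gpx4, and Sod1, Prdx1 and Txn1 were on the positive side. The red cell markers were lower in males in 17 of 17, with a median of -0.33. Of all features, 49.3% were higher in males. The marker values include the CR female of replicate 5, with a red cell mean of 1.61, and were not repeated without that pup.

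The genes most like each member, by Pearson's r over the 23 pups among 9878 named genes, differed between the members. For Prdx2 they were Ranbp10 (0.984), Kel (0.983, a blood group antigen of the red cell list) and Slc25a39 (0.979, a mitochondrial carrier linked to glutathione import). For Gpx1 they were Prdx2 itself (0.969), Gda (0.955, guanine deaminase) and Lgals5 (0.953, a rat galectin). For Cat they were Bpgm (0.943, the red cell enzyme that makes bisphosphoglycerate), Ncoa4 (0.939, the receptor for ferritin turnover) and Tent5c (0.938). For Gpx4 they were Numb (0.944), Plekhj1 (0.943) and Slc38a5 (0.927, an amino acid transporter). The least alike were Timm9 for both Prdx2 (-0.75) and Gpx1 (-0.76), Ctr9 for Cat (-0.74) and Nop56 for Gpx4 (-0.76).

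For Sod2 the most alike were Gas2l1 (0.972), Stau2 (0.970) and Stx11 (0.963, a syntaxin used in granule release), and the least was Zfp131 (-0.82). Zfp131 was among the most alike for Prdx1 (0.806), with Fam98b (0.821) and Lrrc42 (0.803), and the least was Pnpla7 (-0.84). Sod1 was most like Mrpl37 (0.778), Siah1 (0.756) and Uhmk1 (0.717) and least like Smpd2 (-0.74). Txn1 was most like Atp5mg (0.804) and Cox7b (0.785), subunits of ATP synthase and cytochrome oxidase, and Plaat5 (0.768), and least like Kidins220 (-0.75). Nqo1, which was near background, was most like Bbs5 (0.743), Cga (0.737) and Tnfsf12 (0.734) and least like Lnx2 (-0.71). Each of these values is the highest or lowest of 9878 and stands as a description.

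The wider pathway was read through 7 further lists, in which 0 genes were called in any diet comparison or between the sexes. Of 33 genes of the glutathione system 24 were measured, and for the mean of the sexes 12 were positive and 12 negative with a median of 0.0055. Gstm1 and Gstm2, mu-class glutathione transferases, had -0.15 ± 0.05 and -0.08 ± 0.04 (SE) and Mgst2, a microsomal transferase, -0.16 ± 0.07. In males Mgst2 was at -0.26 and Gstm1 at -0.15. The glutathione genes ran from -0.16 to 0.34 for the mean of the sexes and from -0.26 to 0.80 in males. The highest in both was Glrx5, a mitochondrial glutaredoxin named here after its values were seen, with 0.80 ± 0.50 in males (unadjusted p of 0.12). Of 19 genes of the thioredoxin and peroxiredoxin system 18 were measured, 8 positive and 10 negative with a median of -0.012. Prdx4, the peroxiredoxin of the endoplasmic reticulum, had 0.24 ± 0.09 in females and 0.09 ± 0.07 for their mean with males. Sesn2, a stress-induced sestrin, had -0.15 in females and -0.10 ± 0.05 for the mean. Msra, which reduces oxidised methionine, had -0.14 in males, and Msrb2 had 0.08 for the mean. The smallest adjusted p in either list over the diet comparisons was 0.587, for the mean of the sexes, where 7.35% of all features had an unadjusted p under 0.05.

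Among regulators and other targets of NRF2, 20 of 23 were measured, 10 positive and 10 negative for the mean of the sexes with a median of -0.00023. Bach1, a repressor that competes at antioxidant response elements, had 0.26 ± 0.11 in males, and Keap1 -0.22 ± 0.10 for the mean of the sexes. Hmox2, the constitutive haem oxygenase, had -0.14 in males, Osgin1 -0.12 in females and Ftl1, ferritin light chain, 0.24 ± 0.18 for the mean. Of 11 genes that supply NADPH 8 were measured, 7 of them negative for the mean of the sexes with a median of -0.086, and 6 of 8 from the scanner software's ratios. Idh2, the mitochondrial isocitrate dehydrogenase, had -0.36 ± 0.20 in males and Nnt, the transhydrogenase, -0.22 ± 0.16. In females Tkt, transketolase, had -0.20, and Idh1 had -0.10 for the mean. The smallest adjusted p of these lists over the diet comparisons was 0.675.

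The NADPH oxidase list, with enzymes that make or handle superoxide, had 8 of 9 genes measured. In females 8 of 8 were negative (median -0.11), and 7 of 8 were so from the scanner software's ratios, the authors' deposited value table, with median centring and without background correction. Ncf1, the p47 subunit of the phagocyte oxidase, had -0.42 ± 0.12 in females and -0.31 ± 0.08 for both sexes averaged (unadjusted p of 0.0011, adjusted p of 0.587). Rac2, the small GTPase of that enzyme, had -0.26 in females, and Ccs, the copper chaperone of SOD1, -0.09 for the mean. Monocyte markers were negative in 9 of 9 in females with a median of -0.24. Of all features, 51.6% were positive in females. Neutrophil markers were positive there in 7 of 10 (median 0.11), and B cell markers negative in 8 of 8 (median -0.35). The part of any of these cells was not tested.

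Selenium is needed for Gpx1 and Gpx4. A list of selenoprotein synthesis genes and other selenoproteins had 12 of 16 measured. For the mean of the sexes 6 were positive and 6 negative, with a median of -0.0051. Sephs2, which makes selenophosphate, had -0.31 ± 0.10 in females, and Pstk, a kinase on the selenocysteine transfer RNA path, 0.14 ± 0.06 in males. Of the selenoproteins, Selenom had -0.23 for the mean of the sexes and Selenos 0.29 in males. Of 20 peroxisome genes, from the compartment that holds catalase, 16 were measured, 8 positive and 8 negative. Pex6, an import motor subunit, had -0.30 ± 0.11 for the mean of the sexes and Abcd3, a membrane transporter, 0.14. Pex13 had 0.13 and Hsd17b4 -0.13 in females, and Pex14 -0.14 in males. None of these values passed after adjustment (smallest adjusted p of 0.587), and the smallest adjusted p in females was 0.995.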

How the data were processed

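PBMC were isolated with Ficoll, and 40 ng of RNA with a RIN above 8.0 was labelled per sample, per the labels' protocols. Per the file headers, Agilent Feature Extraction 10.5.1.1 read the arrays. The scanner output, as deposited, holds spot and local background intensity for Cy5 and Cy3, spot flags, and the software's log10 ratio of Cy5 over Cy3. The authors' deposited value table holds log2 values, and its method of normalization and its centring are not given in the sources used here. Probe positions are those of rn4 in the files, and genes were named through accessions in RefSeq (GRCr8), which matched 19696 of 41012 probes.

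From the intensities, background was corrected with normexp (offset 50) and arrays were normalised by loess in limma 3.58.1 (R 4.3.3), with control spots at weight 0. Spots marked as outliers were left out, which touched no spot of the 10 genes, and spots of 1 probe were averaged. A probe was kept if its Cy5 signal was well above background on at least 50% of the arrays of 1 group (23722 probes). A gene was read from its brightest kept probe, which left 20781 features. One model with a mean for each of the 4 groups gave 5 comparisons, and p-values were adjusted over all features (Benjamini-Hochberg, threshold 0.05). All adjusted p in the text come from limma except those of correlations. These come from 100000 two-sided permutations of the samples, adjusted over 72 relations. The fit was tested on simulated data.

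Named genes are all 10 members. For each pathway list they are the 3 genes with the smallest p for the mean of the sexes and the 2 with the smallest in each sex. For likeness they are the 3 highest and the 1 lowest r. Some genes that this rule names are not reported here. The members and the gene lists were chosen with earlier results of these data known. Alternatives were no background correction, median centring, the software's ratios, the value table, no filter on dim probes, the mean of all kept probes, slide or replicate number as a block, and leaving out each pup. The spread without the CR female of replicate 5 was added after seeing the data. Correlations of same-numbered deviations ran from -0.41 to 0.46, with means per number from -0.061 to 0.19. They do not settle whether replicate numbers pair the pups, and same-numbered females shared a slide.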

Additional observations from a re-analysis of the deposited data

Results flagged for a closer look

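In the CR females, replicate 5 stood apart from the other 5 pups for 3 genes, by more than Dixon's 95% critical value for 6 samples (0.625 of the range). Prdx2 was 2.17 there and -0.43 in the next pup, a gap of 0.87 of the range. Gpx1 was 1.48 there and -0.17 in the next pup, a gap of 0.77. Gpx4 was 1.13 there and 0.06 in the next pup, a gap of 0.75. The red cell marker mean of the same pup was 1.61, against -0.37 in the next, a gap of 0.75, and its part in the 3 values was not tested. The array of this pup also had the lowest median r with the other arrays, 0.064, and the part of array quality was not tested. In the control males, Prdx1 was -0.54 in replicate 2 and -0.14 in the next pup, a gap of 0.85, and that pup had the highest platelet mean of its group, 1.21. In all, 4 of 36 sets of 1 gene in 1 group passed this criterion, where chance gives about 1 in 20. The sets are not independent, since 3 of the 4 are the same pup in genes that varied together.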

How the results depend on the processing

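No member passed an adjusted p under 0.05 in any of 1435 values over all settings, and the smallest adjusted p was 0.0897, for Sod1 in males with median centring. Of these values 121 changed sign, 84 of them when 1 pup was left out. The relations of Prdx2, Gpx1, Cat and Gpx4 with red cell markers and of Sod2 with platelet markers passed under all 8 settings other than leaving out a pup, with the lowest r at 0.953, 0.856, 0.881, 0.654 and 0.894. The cause of the changes below was not tested.

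With median centring, males had -0.463 for Sod1, -0.119 for Gpx1, -0.432 for Gpx4 and -0.457 for Txn1. The mean of the sexes had -0.11 for Cat, -0.241 for Sod1, -0.0891 for Gpx1, -0.219 for Gpx4, -0.23 for Prdx1, -0.0779 for Prdx2 and -0.209 for Txn1. The difference between the sexes had -0.444 for Sod1, -0.06 for Gpx1, -0.428 for Gpx4 and -0.496 for Txn1. The median of all features moved to -0.185 in males, -0.099 for the mean and -0.158 for the difference, and relative to it Gpx1 in males was 0.0661 and Sod1 -0.277.

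With the slide as a block, males had 0.0488 for Sod2 and -0.0631 for Gpx4. The mean of the sexes had -0.00652 for Sod1, 0.00771 for Sod2, -0.0338 for Gpx4, -0.0376 for Prdx1 and -0.00763 for Prdx2. The difference had 0.0823 for Sod2 and -0.0586 for Gpx4. Without background correction, females had 0.0189 for Gpx4 and 0.00334 for Nqo1. From the software's ratios, Gpx4 in females was 0.023, Sod2 in the difference 0.0188 and Prdx1 between the sexes 0.0196. In the authors' deposited value table, which held 8 of the 9 genes used here, Gpx4 in females was 0.0415 and Txn1 in the difference -0.0328. Between the sexes that table gave 0.0225 for Prdx1 and 0.0279 for Txn1. With the mean of all kept probes, Txn1 was -0.0426 in males, -0.000899 for the mean and -0.0833 for the difference. The replicate block gave 0.0163 for Sod2 in the difference and 1 feature called in males in place of 0, and changed no other count of calls in the diet comparisons. With it the r of Txn1 with red cell markers was 0.624 and passed (adjusted p of 0.0163). Among females, same-numbered pups shared a slide, so the replicate block and the slide block gave the same diet differences in females. In males numbers and slides did not coincide. Over all pups, 5 of 23 correlated best with their own number.

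Leaving out 1 pup gave ranges that span 0. In males they were -0.0194 to 0.103 for Sod1, -0.14 to 0.115 for Sod2, -0.02 to 0.144 for Gpx4 and -0.00741 to 0.0862 for Nqo1. In females they were -0.08 to 0.00253 for Sod1, -0.288 to 0.0932 for Sod2, -0.433 to 0.0253 for Gpx1, -0.202 to 0.0807 for Gpx4, -0.0366 to 0.0522 for Txn1 and -0.0391 to 0.0103 for Nqo1. For the mean they were -0.0601 to 0.214 for Cat, -0.0306 to 0.0308 for Sod1, -0.171 to 0.0409 for Sod2, -0.0165 to 0.213 for Gpx1, -0.0719 to 0.0697 for Gpx4, -0.0266 to 0.0634 for Prdx1, -0.0737 to 0.267 for Prdx2 and -0.00905 to 0.0378 for Nqo1. For the difference they were -0.147 to 0.234 for Sod2 and -0.0225 to 0.26 for Gpx4. Between the sexes they were -0.0491 to 0.0122 for Sod1, -0.206 to 0.00584 for Sod2, -0.057 to 0.0282 for Prdx1 and -0.0373 to 0.0071 for Txn1. Features called ran from 0 to 4 in males (4 without the CR male of replicate 2) and 0 to 3 for the mean, where the same pup gave 3 and the CR female of replicate 1 gave 1.

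Features with an unadjusted p under 0.05 numbered 1493 in males, 6529 with median centring, 2817 with no filter and 833 without the CR male of replicate 1. They numbered 965 in females and 271 with median centring. For the mean they were 1527, against 3697 with median centring and 2431 with no filter, for the difference 971, 2461 and 1805, and between the sexes 1537, 819 and 2415. Nqo1 and Gclm were limited by signal near background.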

Other observations

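The B cell markers were lower in CR than in control pups in 8 of 8 for the mean of the sexes, with a median of -0.41 and an unadjusted p under 0.05 for all 8, against 7.35% of all features. None of the 8 passed after adjustment (smallest adjusted p of 0.499). Their mean had no relation past the threshold with any antioxidant enzyme gene, the strongest r being -0.22, with Txn1.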
